A study of Mus musculus with 8 samples.

Results

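The PI3K, AKT, mTORC1 and FoxO pathway is covered here by 40 genes measured in mouse GAS (gastrocnemius) muscle, out of 22206 probe sets on the array (22664 gene symbols, since some probe sets name several). The study followed growth signalling in muscle with reduced MYTHO, and the comparison asks whether transcripts of the pathway differ. The genes were taken by symbol from the pathway, from the adaptors below the insulin receptor to the FoxO factors. Each of the 40 genes had 1 probe set on the array. The muscles came from male C57/Bl6j mice aged 22 weeks. At about 10 weeks of age, an adeno-associated virus (AAV) was injected that carried, behind a U6 promoter, either a hairpin that targets MYTHO (short hairpin RNA, sh-RNA; MYTHO-KD, 4 samples) or a scramble sequence (scramble, 4 samples). The study's methods place the scramble virus in the opposite leg, so every control muscle had also received a virus and a hairpin. Muscle was taken 12 weeks after injection, and total RNA of GAS muscle samples was hybridized to Clariom S Mouse arrays. Per the methods these were small pieces by weight, and the region of the muscle they came from is not given. The U6 promoter is active in many cell types, so the hairpin was not limited to muscle fibres by its promoter. The virus was of serotype 1, which the methods describe as having a tropism for skeletal muscle cells.

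In this pathway, insulin and insulin-like growth factors act through IRS adaptors and PI3K to activate AKT. AKT restrains the FoxO transcription factors, which drive atrophy genes in muscle, and relieves the block that the TSC complex places on Rheb, the small GTPase that switches on mTORC1. Amino acids act through a second branch, in which Rag GTPases held on the lysosome by the Ragulator complex recruit mTORC1 to Rheb. Most of the regulation runs through phosphorylation, nucleotide state and location of the proteins, none of which an array measures.

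The deposited table gives 1 average signal (log2 scale) and 1 SD for each group and no values of single arrays, so the spread is given by the SDs and overlap of the samples cannot be read. The targeted gene, *D230025D16Rik* (Mytho), was measured at 7.71 ± 0.66 (SD, n = 4) in MYTHO-KD and 10.02 ± 0.37 in scramble, which is 20.2% of scramble (limma's moderated test, adjusted p = 0.0138). The labels number the replicates without naming the animals, so the legs of 1 mouse cannot be matched. The test took the samples as independent, and the SEs, intervals and p-values below measure the spread between these samples. In RNA of mixed muscle tissue, fewer cells of a type and less RNA per cell cannot be told apart.

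The median absolute difference of the pathway genes between MYTHO-KD and scramble was 0.220, against 0.180 over all probe sets. Differences are MYTHO-KD minus scramble on the log2 scale, and 26 of the 40 genes (65.0%) differed by less than 0.25, against 62.8% of all probe sets. Higher averages in MYTHO-KD were found for 18 genes and lower averages for 22, with a median difference of -0.025 against -0.01 over all probe sets. Under the study's rule for a changed gene (2-fold or more and an unadjusted p under 0.05), 1 gene fell and 0 rose. The gene that fell was *Rragd*, which encodes RagD. The same rule called 1.12% of all probe sets, 0.860% higher and 0.257% lower. At an unadjusted p under 0.05 alone, 3 genes (7.5%) were lower, against 5.52% of all probe sets, namely *Rragd*, *Deptor* and *Lamtor2*. In the other direction 1 gene (2.5%), *Lamtor3*, was higher, against 6.48% of all probe sets. With Benjamini-Hochberg adjustment in limma over all probe sets, 0 of the 40 genes had an adjusted p under 0.05, against 0.275% of all probe sets (0.180% higher and 0.0946% lower).

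**Figure D1:**
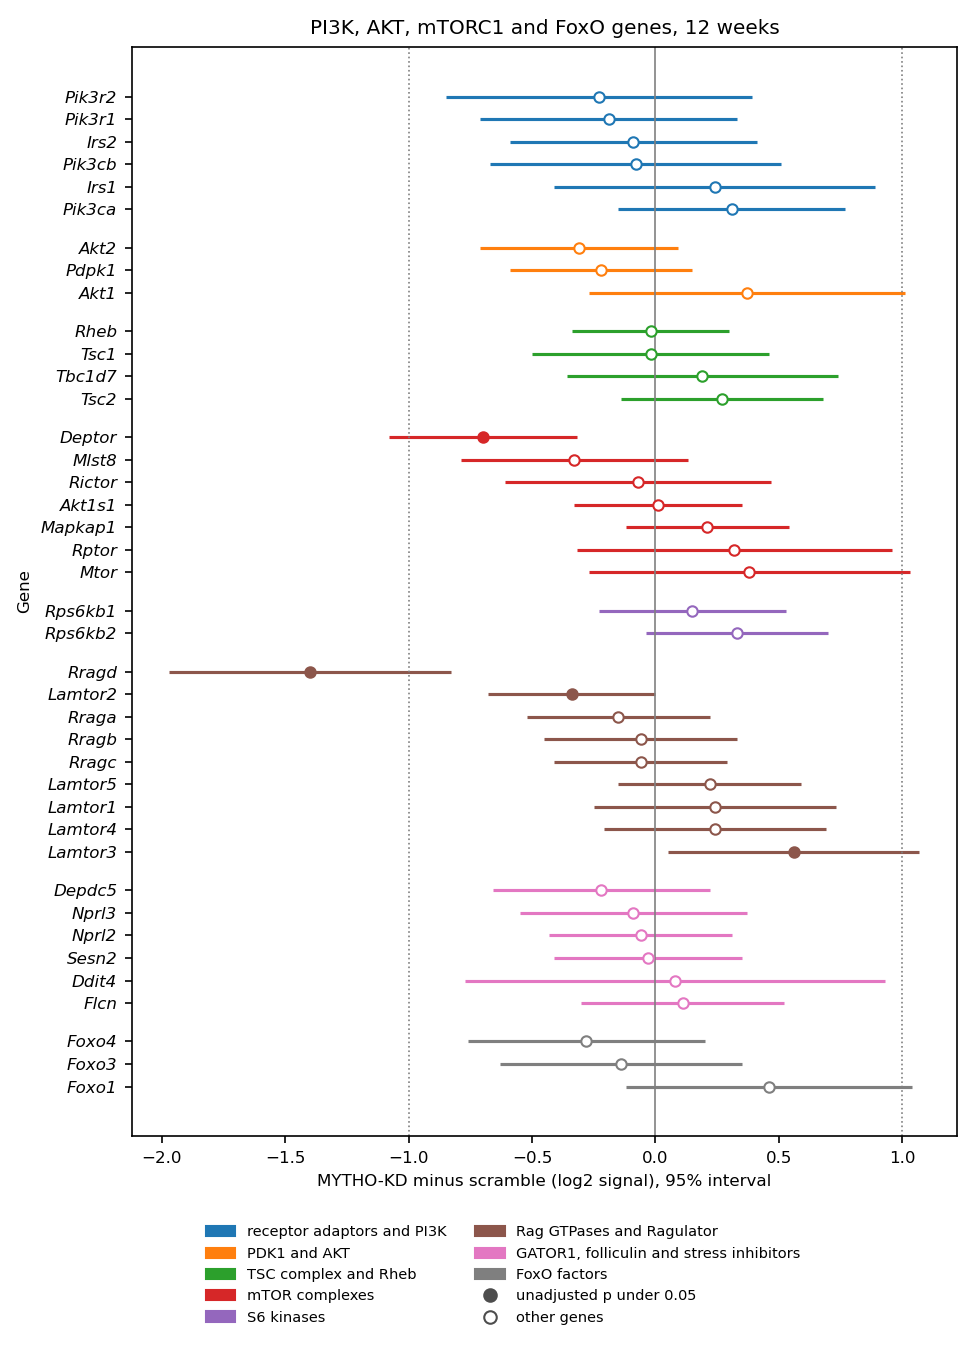
Difference in signal (log2, MYTHO-KD minus scramble; x axis) of each of the 40 genes (y axis), ordered within its role in the pathway; bars are 95% intervals from limma's moderated variance, filled points have an unadjusted p under 0.05 and dotted lines mark a 2-fold change. *Rragd* at -1.40 stands alone beyond 2-fold, and the next largest differences are *Deptor* at -0.70 and *Lamtor3* at 0.56.

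The Rag GTPases and the Ragulator complex bring mTORC1 to the lysosome when amino acids are plentiful. They made up 9 of the 40 genes and held 3 of the 4 with an unadjusted p under 0.05. Of all probe sets, 6.48% were higher and 5.52% lower at that threshold. Of the 3 genes, *Rragd* and *Lamtor2* were lower and *Lamtor3* was higher, and only *Rragd* passed in every setting of the test. *Rragd* (chr4:32982998-33023356, mm10, plus strand) averaged 12.59 ± 0.57 in MYTHO-KD and 13.99 ± 0.22 in scramble (SD, n = 4 each). Its signal fell by 1.40 on the log2 scale (SE 0.259, 95% interval -1.97 to -0.83) to 37.9% of scramble, the 16th largest fall of all probe sets. The adjusted p was 0.0547 by limma. Across 9 settings of the test the adjusted p ran from 0.0124 to 0.452, so its side of 0.05 depended on the setting, while the unadjusted p stayed under 0.05 in all 9.

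RagD pairs with RagA or RagB, as does its close relative RagC. *Rragc* averaged 11.40 ± 0.12 in MYTHO-KD and 11.46 ± 0.19 in scramble, a difference of -0.06 with a 95% interval of -0.41 to 0.29. The lower averages of *Rraga* (-0.15) and *Rragb* (-0.06) were within their error as well (adjusted p = 0.801 and adjusted p = 0.944 by limma). The intervals of *Rraga*, *Rragb* and *Rragc* all lay inside 1.5-fold in either direction, and that of *Rragd* lay wholly below theirs. The difference between *Rragd* and its relatives was not itself tested.

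Promoter sequence upstream of *Rragd* and *Rragc* is shown because these relatives fill the same place in the Rag pair, and *Rragd* passed the 2-fold rule while *Rragc* did not. The 250 bases before each start site are from RefSeq (GRCm38.p6), read 5′ to 3′ on the plus strand, *Rragd* at chr4:32982748-32982997 and *Rragc* at chr4:123917183-123917432. Capitals mark CACGTG, the E-box core to which TFEB and related factors bind.
Rragd: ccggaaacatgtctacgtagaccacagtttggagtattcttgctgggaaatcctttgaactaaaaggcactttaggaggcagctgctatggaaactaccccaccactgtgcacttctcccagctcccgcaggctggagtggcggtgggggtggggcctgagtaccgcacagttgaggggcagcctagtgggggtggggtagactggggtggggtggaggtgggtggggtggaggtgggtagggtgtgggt
Rragc: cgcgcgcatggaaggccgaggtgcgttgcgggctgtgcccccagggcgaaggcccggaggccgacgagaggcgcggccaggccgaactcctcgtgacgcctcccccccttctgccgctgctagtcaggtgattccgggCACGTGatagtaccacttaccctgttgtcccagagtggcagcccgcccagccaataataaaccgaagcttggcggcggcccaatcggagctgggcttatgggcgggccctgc
The *Rragc* sequence holds 1 such match and the *Rragd* sequence none, with a GC content of 68.0% and 59.6%. Whether these sequences bear on the signal of either gene was not tested. The search covered these bases only, so the lack of a match does not show that *Rragd* lacks such regulation. A window of 250 bases before to 50 after the start was available for 36 of the 40 genes. CACGTG occurred in 8 of them (22.2%, against 8.09% of 27025 genes with a window), namely *Irs1*, *Irs2*, *Tbc1d7*, *Rheb*, *Rragb*, *Rragc*, *Lamtor1* and *Lamtor4*. The differences of these 8 genes ran from -0.09 to 0.24, and 0 of them had an unadjusted p under 0.05. Of all probe sets, 6.48% were higher and 5.52% lower at that threshold, and 8 genes are too few to set 0 apart from these shares. GTAAACA, a FoxO core (TGTTTAC on the other strand), occurred in 2 windows (5.56%, against 4.05% of all genes), those of *Akt1* and *Mapkap1*. TGATGCA, a core of the ATF4 element (TGCATCA on the other strand), occurred in that of *Akt2* alone (2.78%, against 3.63%).

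Ragulator has 5 subunits, and the roadblock proteins LAMTOR2 and LAMTOR3, which bind each other within it, had differences of opposite sign. *Lamtor3* (chr3:137918526-137928767) averaged 10.80 ± 0.26 in MYTHO-KD and 10.24 ± 0.45 in scramble. This is 1.47-fold higher (log2 difference 0.56, SE 0.233, 95% interval 0.05 to 1.07, adjusted p = 0.367 by limma). *Lamtor2* (chr3:88549819-88553074) averaged 9.54 ± 0.13 in MYTHO-KD and 9.88 ± 0.12 in scramble, 79.0% of scramble. Its difference of -0.34 (SE 0.154) had an adjusted p of 0.413. Neither held its unadjusted p under 0.05 in every setting of the test. The other subunits were *Lamtor1* at 0.24, *Lamtor4* at 0.24 and *Lamtor5* at 0.22, and none of the 3 passed. Over the 9 Rag and Ragulator genes the median difference was -0.06.

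The mTOR kinase works in mTORC1 with Raptor and in mTORC2 with Rictor and mSIN1, and DEPTOR binds and inhibits it in both. *Deptor* (chr15:55112317-55259273) averaged 11.98 ± 0.22 in MYTHO-KD and 12.68 ± 0.18 in scramble, a gap more than 3 times either SD. Its signal was 61.6% of scramble (log2 difference -0.70, SE 0.174, 95% interval -1.08 to -0.32), short of the 2-fold rule. The adjusted p was 0.133, and both *Deptor* and *Rragd* kept an unadjusted p under 0.05 in all 9 settings.

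*Mtor* itself averaged 10.21 ± 0.35 in MYTHO-KD and 9.83 ± 0.65 in scramble. The difference of 0.38 was smaller than the scramble SD (SE 0.298, 95% interval -0.27 to 1.03, adjusted p = 0.678). *Mlst8*, a subunit of both complexes, averaged 8.10 ± 0.21 and 8.43 ± 0.39, a difference of -0.33 (95% interval -0.79 to 0.13, adjusted p = 0.591). Differences were 0.32 for *Rptor* (Raptor), -0.07 for *Rictor* and 0.21 for *Mapkap1* (mSIN1), with adjusted p of 0.738, 0.955 and 0.645. *Akt1s1*, which encodes the mTORC1 inhibitor PRAS40, differed by 0.01, on a probe set that the table also assigns to *Mir707*. The median of the 7 genes was 0.01.

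S6 kinases carry the mTORC1 signal to the ribosome. *Rps6kb2* averaged 11.42 ± 0.23 in MYTHO-KD and 11.09 ± 0.12 in scramble. Its difference of 0.33 (SE 0.169, 95% interval -0.04 to 0.70) had an adjusted p of 0.467, with an unadjusted p above 0.05. *Rps6kb1*, the main S6 kinase gene, differed by 0.15 (adjusted p = 0.806).

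**Figure D2:**
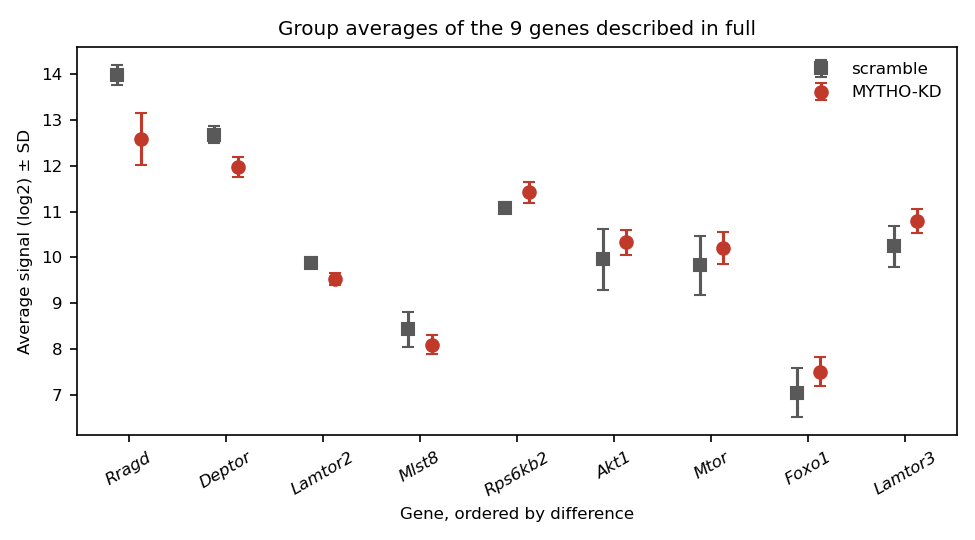
Average signal (log2, y axis) ± SD of the 9 genes with an unadjusted p under 0.05 or one of the 8 largest differences, in scramble (grey squares) and MYTHO-KD (red circles), n = 4 samples each, ordered from the most negative to the most positive difference. The SD bars of *Rragd*, *Deptor* and *Lamtor2* stand apart, those of *Akt1*, *Mtor* and *Foxo1* overlap, and the scramble bars of *Akt1* and *Mtor* span 0.67 and 0.65 to either side.

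Among the upstream genes, none had an unadjusted p under 0.05. The adaptors *Irs1* and *Irs2* differed by 0.24 and -0.09. The catalytic PI3K genes *Pik3ca* and *Pik3cb* differed by 0.31 (adjusted p = 0.619) and -0.08, and the regulatory genes *Pik3r1* and *Pik3r2* by -0.19 and -0.23. *Pdpk1*, the kinase that phosphorylates AKT in its activation loop, differed by -0.22 (adjusted p = 0.667).

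The AKT genes had differences of opposite sign, neither beyond its error. *Akt1* averaged 10.33 ± 0.28 in MYTHO-KD and 9.96 ± 0.67 in scramble (difference 0.37, 95% interval -0.27 to 1.01, adjusted p = 0.685). *Akt2*, the AKT gene most tied to insulin-driven glucose uptake in muscle, was at 10.66 ± 0.17 and 10.97 ± 0.29 (difference -0.31, 95% interval -0.71 to 0.09, adjusted p = 0.558).

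In the TSC branch, *Rheb* had the smallest SE of the 40 genes (0.147). It averaged 13.17 ± 0.11 in MYTHO-KD and 13.19 ± 0.04 in scramble, a difference of -0.02 with a 95% interval of -0.34 to 0.30. *Tsc1* differed by -0.02 (95% interval -0.50 to 0.46), *Tsc2* by 0.27 (adjusted p = 0.628) and *Tbc1d7*, the third subunit, by 0.19.

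GATOR1 holds the Rag GTPases inactive when amino acids are scarce, and its 3 genes *Depdc5*, *Nprl2* and *Nprl3* differed by -0.22, -0.06 and -0.09. *Flcn*, which encodes folliculin, the partner that sets the nucleotide state of RagC and RagD, differed by 0.11 (95% interval -0.30 to 0.52). Both stress-induced inhibitors of mTORC1 were close to 0 as well. *Ddit4* (REDD1) differed by 0.08 with the widest error of the 40 genes (SD 0.87 in the MYTHO-KD and 0.54 in the scramble samples). *Sesn2* (sestrin 2) averaged 3.94 and 3.97, and it is the one gene of the 40 that the table lists as not expressed in either group.

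FoxO factors also differed in sign among themselves. *Foxo1* averaged 7.51 ± 0.32 in MYTHO-KD and 7.05 ± 0.54 in scramble (difference 0.46, SE 0.264, 95% interval -0.12 to 1.04, adjusted p = 0.535). *Foxo3* and *Foxo4* differed by -0.14 and -0.28 (adjusted p = 0.87 and adjusted p = 0.677). None of the 3 passed the unadjusted threshold.

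Sorted by their action on mTORC1, the genes did not divide by sign. The 21 genes that form mTORC1 or are needed for its activation had a median difference of -0.02, with 10 higher and 11 lower. The 10 genes that inhibit mTORC1 had a median of -0.025, with 4 higher and 6 lower. At an unadjusted p under 0.05, the first set held *Lamtor3* higher and *Rragd* and *Lamtor2* lower, and the second held *Deptor* lower. These actions were assigned after the values were seen.

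**Figure D3:**
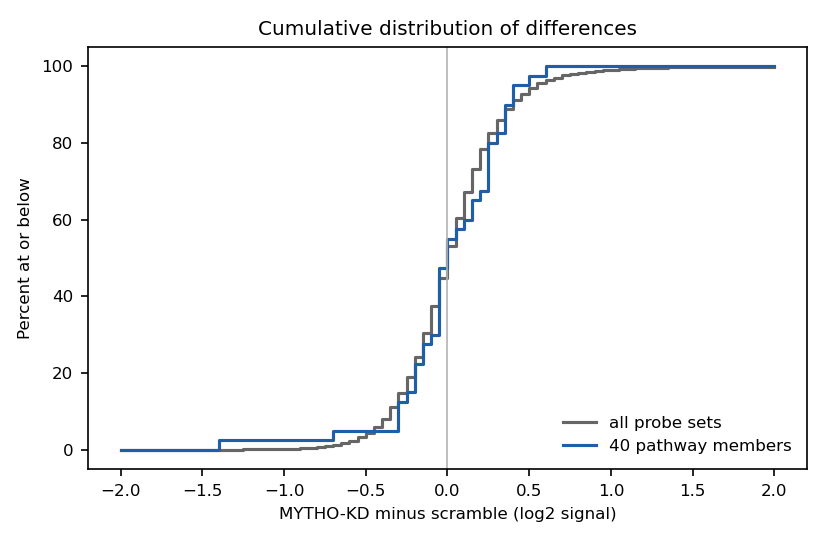
Percent of genes (y axis) with a difference (log2, MYTHO-KD minus scramble; x axis) at or below each value, for the 40 pathway genes (blue) and all 22206 probe sets (grey). The curves run close together around 0, with medians of -0.025 and -0.01, and the blue steps at -1.40 and -0.70 are *Rragd* and *Deptor*.

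The precision sets what these averages can show. SEs ran from 0.147 to 0.391 with a median of 0.21. The 95% interval lay within 2-fold in either direction for 34 of the 40 genes (85.0%, against 89.2% of all probe sets). The 6 others were *Akt1*, *Mtor*, *Deptor*, *Rragd*, *Lamtor3* and *Foxo1*. Only 12 genes, against 38.4% of all probe sets, had an interval within 1.5-fold, and for 27 others it reached past a change of that size. The interval of *Rragd* lay wholly beyond it. The SD was larger in scramble than in MYTHO-KD for 27 of the 40 genes (67.5%), against 49.5% of all probe sets, with median SDs of 0.31 and 0.23.

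Other genes of the pathway were taken from 6 lists, with 106 of 108 genes found on the array. At an unadjusted p under 0.05, 9 of these (8.49%) were higher and 11 (10.4%) lower, against 6.48% and 5.52% of all probe sets. The 2-fold rule called 3 (2.83%) higher and 1 (0.943%) lower, against 0.860% and 0.257%. The same shares of all probe sets are the background of the counts for each list. The median difference was -0.01. *Inppl1*, which encodes SHIP2, a phosphatase of the PI3K product PIP3, was the one gene with an adjusted p under 0.05. It averaged 13.46 ± 0.14 in MYTHO-KD and 12.45 ± 0.17 in scramble and rose by 1.01 (SE 0.161, adjusted p = 0.0304 by limma).

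Among the 20 receptors and regulators of PI3K and AKT, 3 were higher and 1 lower at an unadjusted p under 0.05 (median 0.13). *Grb14*, an adaptor that blocks the insulin receptor, rose by 1.16 under the 2-fold rule (8.20 ± 0.45 against 7.04 ± 0.66, adjusted p = 0.162). *Inpp5d* (SHIP1), a phosphatase best known in blood cells, was higher by 0.54 (adjusted p = 0.408). In the same list the PI3K genes *Pik3cg* (-0.61) and *Pik3cd* (-0.28) had lower averages, neither with an unadjusted p under 0.05. Macrophage markers were higher in the same muscles, and their part in these values was not tested.

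Of the 22 genes that feed amino acid and energy state into mTORC1, 2 were higher and 3 lower (median -0.04). *Prkab2*, the AMPK subunit typical of skeletal muscle, fell by 1.17 under the 2-fold rule (13.43 ± 0.65 against 14.60 ± 0.22, adjusted p = 0.122). *Stk11*, which encodes the AMPK-activating kinase LKB1, was lower by 0.73 (adjusted p = 0.253). The other AMPK genes in the list were at -0.04 (*Prkaa1*), -0.20 (*Prkaa2*), 0.05 (*Prkab1*) and 0.08 (*Prkag1*), none with an unadjusted p under 0.05. *Sesn3* (sestrin 3) rose by 1.03 under the 2-fold rule (9.71 ± 0.53 against 8.68 ± 0.29, adjusted p = 0.134). The remaining differences at an unadjusted p under 0.05 were 0.61 for the arginine sensor *Castor1*, listed on the array as *Gatsl3*, and -0.63 for the GATOR2 gene *Mios*.

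In the 19 other mTORC subunits and effectors, 0 were higher and 2 lower (median -0.07). *Rhebl1*, a relative of Rheb, averaged 5.33 and 6.18 (difference -0.85, adjusted p = 0.147). *Eif4e*, the cap-binding protein that 4E-BPs hold in check, averaged 12.48 and 12.99 (difference -0.51, adjusted p = 0.234). *Lpin1* was at -0.34 and did not pass (adjusted p = 0.42).

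FoxO target genes went both ways. Of 22, 3 were higher and 3 lower at an unadjusted p under 0.05, with a median of -0.005. Beside *Sesn3*, the cathepsin gene *Ctsl* (difference 0.66) and the catalase gene *Cat* (0.58) were higher. *Trim63*, which encodes the atrophy ubiquitin ligase MuRF1, was lower (14.14 against 14.58, difference -0.44, adjusted p = 0.381), as were *Map1lc3b* (-0.41) and *Ccng2* (-0.48). *Fbxo32*, the other atrophy ligase (atrogin-1), was at -0.29 and did not pass (adjusted p = 0.671).

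Transcript programmes that mTORC1 is known to drive had medians close to 0 as well. ATF4 targets, which serve amino acid and one-carbon metabolism, had 2 of 16 genes higher (*Shmt2* at 0.59 and *Mthfd2* at 0.40) and 1 lower (*Psph* at -0.64), with a median of 0.015. SREBP targets, which make sterols and fatty acids, had 0 of 12 higher and 1 lower, with a median of -0.02. The lower one was *Hmgcs1* (9.81 against 10.42, difference -0.61, adjusted p = 0.262), followed by *Insig1* at -0.41 (adjusted p = 0.448) and *Acly* at 0.36 (adjusted p = 0.684), which did not pass.

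**Figure D4:**
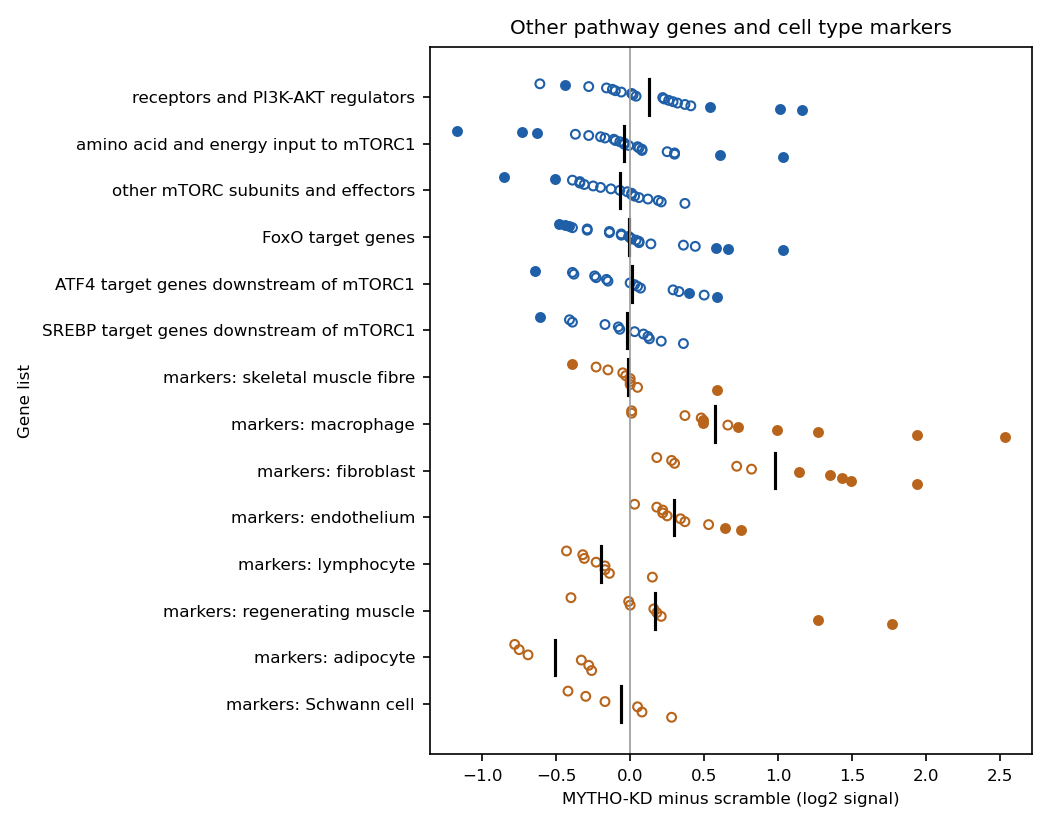
Difference in signal (log2, MYTHO-KD minus scramble; x axis) of each gene (points) in the 6 lists of other pathway genes (blue) and the 8 lists of cell type markers (orange), one list per row of the y axis; filled points have an unadjusted p under 0.05 and vertical black lines are medians. The pathway medians lie between -0.07 and 0.13, while those of macrophage and fibroblast markers lie at 0.575 and 0.98.

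Markers of the cell types that muscle tissue can hold were read from the same table. The 10 muscle fibre markers had a median difference of -0.015 and a summed signal (log2 of the sum) of 22.62 in MYTHO-KD and 22.64 in scramble. Of these markers, *Acta1*, *Myh4* and *Atp2a1* read the highest average in the table in both groups, and 4 more read above 19, so this median and sum could show little change. Below that level were *Ckm*, *Myh1* (higher by 0.59) and *Ryr1* (-0.39). Of the fibre markers, *Myh1* and *Ryr1* had an unadjusted p under 0.05, in opposite directions. All 12 macrophage markers had higher averages in MYTHO-KD, 7 of them at an unadjusted p under 0.05, with a summed signal of 12.30 against 11.08. *Cd68* averaged 9.43 ± 0.88 and 6.90 ± 0.20 (adjusted p = 0.0182). All 10 fibroblast markers were higher, 5 at an unadjusted p under 0.05, with a summed signal of 17.12 against 16.73. The 10 endothelial markers were also all higher, 2 of them at that threshold (median 0.295, 14.67 against 14.22).

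Of 8 lymphocyte markers 1 was higher and 7 were lower, with none past the threshold (median -0.20). Of 8 markers of regenerating muscle, 2 were higher at that threshold, *Myh3* by 1.27 and *Mymk* by 1.77, while *Myh8* read the highest average in the table in both groups and could not show a rise. The 6 adipocyte markers had a median of -0.51 with median SDs of 1.29 and 1.35, and the 6 Schwann cell markers a median of -0.06. None of the markers was listed as not expressed in both groups. The part of other cell types in the values of the pathway genes was not tested.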

How the data were processed

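GAS muscle RNA was measured on Clariom S Mouse arrays (4 MYTHO-KD and 4 scramble samples, grouped by the treatment in the labels). Per the methods, the authors used the Transcriptome Analysis Console with SST-RMA, while the submitters' processing notes name Affymetrix Expression Console and RMA (mm10). The deposited table holds, on the log2 scale, an average, an SD and an expression flag of either group for all 22206 probe sets. The kind of average is not given in the sources used here. The deposited columns of the authors' own comparison (fold change, p-value and FDR) were not used.

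Because the table analysed holds no single arrays, limma's moderated test (limma 3.58.1, R 4.3.3) was computed from the averages and SDs. The pooled variance (6 residual degrees of freedom) was moderated with squeezeVar (5.85 prior degrees of freedom, a prior SD of 0.284), tests were two-sided and p-values were adjusted by Benjamini-Hochberg over all probe sets. The test takes the averages as plain means and the samples as independent. It was tested on simulated data that met both assumptions, so the simulation checks the formula and not the assumptions. If the averages are robust ones, the p-values may be too low. After the study's methods, a call needed a change of at least 2-fold and an unadjusted p under 0.05. Genes are described in full at an unadjusted p under 0.05 or with one of the 8 largest differences. From each pathway list the 3 genes with the lowest p are named, except an item that is not reported here, and other pathway and marker genes named were chosen after their values were seen. The 40 genes and the lists were chosen with earlier results of these data known. Gene coordinates are those of the table (mm10) and promoters are from RefSeq (GRCm38.p6). Arrays have no read depth, and their number limits the precision.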

Additional observations from a re-analysis of the deposited data

How the results depend on the processing

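Averages of 4 samples and the unknown kind of average limit these results, and leaving out a replicate and the replicate block were not run. No paired analysis was possible because the table holds group averages and not single arrays. At an unadjusted p under 0.05, 2 genes were higher without moderation of the variances (*Rps6kb2* and *Mapkap1*) against 1 in the reported test. At an adjusted p under 0.05, 1 gene (*Rragd*) was lower against 0 in the reported test, with a trend and robust fitting (adjusted p = 0.0124), with dim probe sets left out (0.0481) and with the largest effect of rounding (0.0444, chosen after seeing the data), and 1 also at an adjusted p under 0.1. Over the 9 settings that differ, the reported one included, its adjusted p ran from 0.0124 to 0.452. At 1.5-fold with an unadjusted p under 0.05, 2 genes were lower, *Rragd* and *Deptor*. *Lamtor3* missed an unadjusted p of 0.05 without moderation and with unequal variances, and *Lamtor2* with a trend, with centring on the median and with rounding. None of the 9 genes described in full changed sign in these settings. None could, since the settings kept the averages or moved a difference by only 0.01. These settings were not run for the genes of the other lists. Averaging the probe sets of a gene repeated the reported test, since each of the 40 genes has 1 probe set. Of the other counts and medians, 82 comparisons with the alternatives that differ stayed within 1.5 times the reported count or moved by less than the spread between samples. The medians among them could hardly move, since a setting left out few of the 40 genes or moved every difference by 0.01. The cause of the counts that moved was not tested.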
